A study of Mus musculus with 22 samples.

Results

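The 9 genes described here encode basic helix-loop-helix (bHLH) transcription factors that drive neurogenesis: Neurog1, Neurog2, Neurod1, Neurod2, Neurod4, Neurod6, Nhlh1, Nhlh2 and Bhlhe22. They were chosen by symbol, as the rows of the RNA table with these names, out of 55385 genes in the table and 16237 genes with enough reads to test. For the chromatin data, the peaks within 2000 bp of each gene's annotated span on GRCm38 were taken, which gave windows between 5703 bp (Neurog1) and 16103 bp (Neurod4). The study compared the telencephalon, the front part of the brain that forms the cortex and the basal ganglia, of ICR mouse embryos at embryonic day 16.5 (E16.5) with that at embryonic day 13.5 (E13.5). RNA-seq of polyadenylated RNA and native ChIP-seq, made without crosslinking, of acetylated H3K9 (H3K9ac), crotonylated H3K9 (H3K9cr) and lactylated H3K18 (H3K18la) covered both stages, and ATAC-seq, which maps open chromatin, covered E13.5. Each group held 2 libraries, named biological replicates by the submitters, and how many embryos were pooled for a library is not stated there. The animals of both stages were of the same outbred strain and carried no stated mutation or treatment.

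Factors with a bHLH domain bind DNA as dimers at E-boxes, short sites with the letters CANNTG. Proneural factors such as Neurog1 and Neurog2 act in progenitors, where they start neuronal differentiation and switch on Notch ligands, while Notch signalling in neighbouring cells raises HES repressors that keep proneural genes off. Neurod and Nhlh factors follow in cells that leave the cycle, and some of them stay on in mature excitatory neurons of the cortex.

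The E-box is the site that links these genes to one another, so the 250 bases before the annotated start were searched for it on both strands. A RefSeq table of promoters (GRCm38.p6) matched 8 of the 9 genes. Its starts did not always match the gene spans used for the peaks. The window of Neurog2, chr3:127632886-127633135, lay inside the gene span. Those of Nhlh2 (chr3:102009895-102010144) and of a start of Neurod4 (chr10:130280139-130280388) ran partly into the spans. The sequences of 4 genes are shown, those with the strongest RNA decreases (Neurog1, Nhlh1), the one whose RNA did not pass the test (Neurod2) and the one with an ATAC peak in both libraries (Neurod1). Each reads 5′ to 3′ on the gene's own strand, here the minus strand in all 4, and capitals mark each CANNTG.
Neurog1, chr13:56252181-56252430: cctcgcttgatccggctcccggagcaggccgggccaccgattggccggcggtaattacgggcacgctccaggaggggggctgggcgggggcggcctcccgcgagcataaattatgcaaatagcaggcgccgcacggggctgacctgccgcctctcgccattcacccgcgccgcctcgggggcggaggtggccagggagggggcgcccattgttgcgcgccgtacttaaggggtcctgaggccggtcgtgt
Nhlh1, chr1:172057597-172057846: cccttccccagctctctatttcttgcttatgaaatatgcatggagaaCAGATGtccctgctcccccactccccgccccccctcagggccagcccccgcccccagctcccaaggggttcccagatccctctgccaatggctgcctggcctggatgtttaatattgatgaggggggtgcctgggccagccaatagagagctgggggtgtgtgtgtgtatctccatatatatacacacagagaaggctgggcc
Neurod2, chr11:98329646-98329895: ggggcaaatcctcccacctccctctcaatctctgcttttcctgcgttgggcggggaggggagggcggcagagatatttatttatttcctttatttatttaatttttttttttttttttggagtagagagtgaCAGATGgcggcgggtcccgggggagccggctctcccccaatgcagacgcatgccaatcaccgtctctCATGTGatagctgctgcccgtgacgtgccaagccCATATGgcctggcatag
Neurod1, chr2:79456637-79456886: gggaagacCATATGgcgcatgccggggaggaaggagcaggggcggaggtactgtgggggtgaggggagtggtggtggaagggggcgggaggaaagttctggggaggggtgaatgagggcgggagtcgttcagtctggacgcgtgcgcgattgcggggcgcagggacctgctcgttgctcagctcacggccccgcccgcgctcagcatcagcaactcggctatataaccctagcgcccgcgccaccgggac
CANNTG occurred in 66.2% of all 32851 promoter entries of the table in the same window. Neurod2 held CAGATG 118 bp before its start, CATGTG at 51 bp and CATATG at 17 bp, each counted to the first base of the site. Nhlh1 held CAGATG at 203 bp and Neurod1 held CATATG at 242 bp, while no CANNTG stood in this window of Neurog1, of Neurog2 or of either annotated start of Neurod4. Among the genes not shown, Neurod6 held CAAATG at 162 bp and CAGTTG at 132 bp, and Nhlh2 held CAACTG at 209 bp and CAGATG at 127 bp. CAGATG, a form bound by Neurog and Neurod factors, was found in 14.4% of all entries and CATATG in 3.46%. Both are also CANNTG. The N-box CACNAG, a site of HES repressors, stood in this window of Neurod4, Neurod6 and Nhlh2, against 36.7% of all entries. A match describes letters in the window only.

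Between the stages, 7 of the 9 genes had less RNA at E16.5, Bhlhe22 had more, and Neurod2 did not pass the test. The decreases were steepest in the factors of progenitors and newborn neurons, Neurog1, Nhlh1, Nhlh2 and Neurog2, each of which fell by more than 2-fold, and were smaller in Neurod1, Neurod4 and Neurod6. Calls were made by edgeR's quasi-likelihood test with a threshold of 0.05 on the Benjamini-Hochberg adjusted p. Of all 16237 tested genes 29.2% were called lower at E16.5, 28.4% were called higher and 4.24% were called lower by more than 2-fold. The median log2 change was -1.0 over the 9 genes and 0.01 over all tested genes. RNA levels are in CPM, that is, relative to the total of each library and not to transcript length, so they are compared between stages and not between genes. In bulk tissue, fewer cells of a type and less RNA per cell cannot be told apart.

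**Figure D1:**
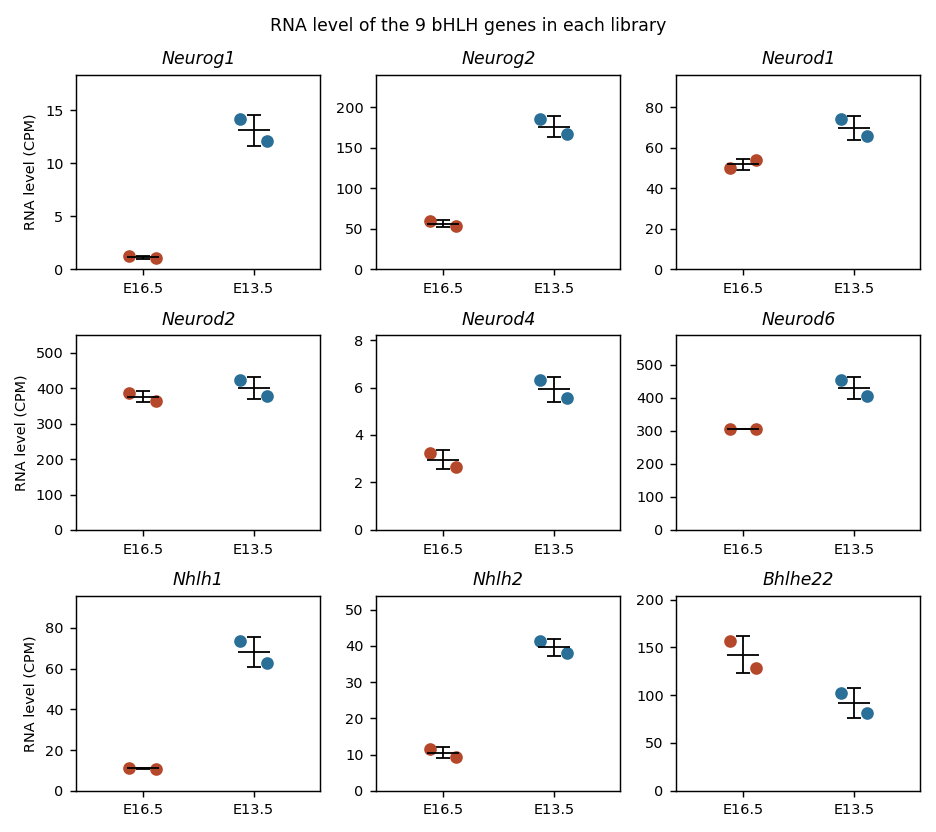
RNA level in CPM (vertical axis, one scale per gene) of the 9 genes in the 2 E16.5 libraries (red) and the 2 E13.5 libraries (blue), with the mean and SD of each stage as bars. The stages overlap in Neurod2 and lie apart in the other genes, and the share of all tested genes without overlap was not counted.

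Neurog1, which commits progenitors to a neuronal fate, had the steepest decrease of the 9 genes. Neurog1 (ENSMUSG00000048904.5, chr13:56250478-56252180, minus strand) had 1.23 and 1.04 CPM at E16.5, against 14.2 and 12.1 CPM at E13.5. These rest on 22 and 19 estimated reads at E16.5, so that the E16.5 level is the less precise. Its log2 change was -3.53 ± 0.22 (SE, adjusted p = 5.92e-06), an 11.5-fold lower level, and only 0.105% of all tested genes had a lower log2 change. Neurog2 (ENSMUSG00000027967.8, chr3:127632733-127635636, plus strand), which directs dorsal progenitors to become excitatory neurons, had 59.6 and 52.8 CPM at E16.5, against 185 and 167 CPM at E13.5. The stages lay far apart in both genes, but Neurog2 kept about 0.320 of its E13.5 level, with a log2 change of -1.65 ± 0.08 (adjusted p = 1.83e-06).

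The Neurod genes, which act after the proneural step, changed less. Neurod1 (ENSMUSG00000034701.9, chr2:79452637-79456636, minus strand), a factor of intermediate progenitors and young neurons, had 50.0 and 53.7 CPM at E16.5, against 74.1 and 65.6 CPM at E13.5. Neurod4 (ENSMUSG00000048015.4, chr10:130268152-130280254, minus strand), a factor of early differentiating cells, had 3.24 and 2.67 CPM at E16.5, against 6.31 and 5.54 CPM at E13.5. In both the stages did not overlap, with log2 changes of -0.43 ± 0.08 for Neurod1 (adjusted p = 0.00161) and -1.0 ± 0.23 for Neurod4 (adjusted p = 0.00661). Neurod4 had only 49 to 105 estimated reads per library, which shows in its wider error.

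Neurod6 and Neurod2 are the members that mature excitatory cortical neurons keep. Neurod6 (ENSMUSG00000037984.9, chr6:55677818-55681263, minus strand) had 304 and 306 CPM at E16.5, against 453 and 405 CPM at E13.5, and fell by 0.49 ± 0.06 on the log2 scale (adjusted p = 0.000169). Neurod2 (ENSMUSG00000038255.6, chr11:98325415-98329645, minus strand) had 387 and 365 CPM at E16.5, against 423 and 378 CPM at E13.5, and its stages overlapped. The log2 change of Neurod2 was -0.09 ± 0.06 (adjusted p = 0.237), with the sign turning to 0.0017 (adjusted p = 0.982) under upper-quartile scaling. Without E13.5 replicate 2, the library with less Neurod2 of that stage, the log2 change was -0.18 and passed the test (adjusted p = 0.0331).

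The Nhlh genes, switched on as neurons are born, fell together. Nhlh1 (ENSMUSG00000051251.3, chr1:172052292-172057596, minus strand) had 11.2 and 10.7 CPM at E16.5, against 73.5 and 62.9 CPM at E13.5. Nhlh2 (ENSMUSG00000048540.8, chr3:102010111-102015492, plus strand) had 11.5 and 9.37 CPM at E16.5, against 41.3 and 38.0 CPM at E13.5. The E16.5 libraries lay far below those of E13.5 in both, at 6.20-fold lower for Nhlh1 (log2 change -2.63 ± 0.10, adjusted p = 8.92e-07) and 3.78-fold lower for Nhlh2 (log2 change -1.92 ± 0.12, adjusted p = 6.57e-06).

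Bhlhe22, a repressor of the Olig-related branch that shapes area identity and projections of postmitotic cortical neurons, was the one member that rose. Bhlhe22 (ENSMUSG00000025128.7, chr3:18054325-18057514) had 157 and 129 CPM at E16.5, against 103 and 81.1 CPM at E13.5. The stages did not overlap, although the libraries of a stage differed among themselves, and the log2 change was 0.63 ± 0.12 (adjusted p = 0.00254). Its log2 change lay above that of 78.2% of all tested genes, so the size of the increase was not unusual among them.

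**Figure D2:**
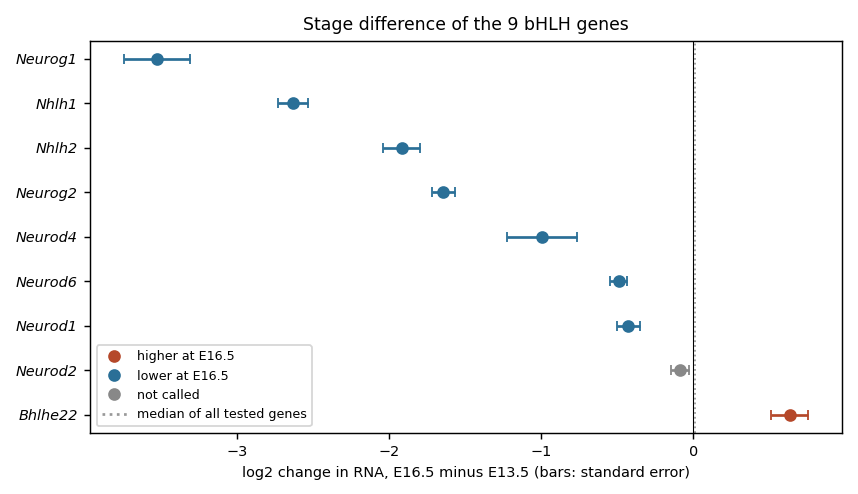
Log2 change in RNA between E16.5 and E13.5 (horizontal axis) with its standard error for the 9 genes, in red where called higher, in blue where called lower and in grey where not called. The genes run from Neurog1 at -3.53 to Bhlhe22 at 0.63, and the dotted line marks the median of all tested genes at 0.01.

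The make-up of the family's reads shifted with these changes. Of the summed counts of the 9 genes, which are not scaled to length, Neurog2 gave 6.05% and 5.68% at E16.5, against 13.5% and 13.7% at E13.5. The share of Bhlhe22 was 15.9% and 13.8% at E16.5, against 7.49% and 6.68% at E13.5. Neurod2 gave 39.3% in each E16.5 library, against 30.8% and 31.1% at E13.5, although its own level did not pass the test. The share of Neurod6 was 30.9% and 32.9% at E16.5, against 33.0% and 33.3% at E13.5.

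All 9 genes were higher in replicate 1 than in replicate 2 at E13.5, and 7 of 9 were at E16.5. The share of all tested genes higher in replicate 1 was not counted, so this order is not shown to be particular to the 9 genes. The summed level of 10 markers of inhibitory neurons and the ventral telencephalon was lower in replicate 1 at both stages, with 1310 CPM in replicate 1 and 1440 CPM in replicate 2 at E16.5, against 1786 CPM in replicate 1 and 1887 CPM in replicate 2 at E13.5. The summed level of the 7 excitatory cortical markers was 1341 CPM in replicate 1 and 1390 CPM in replicate 2 at E16.5, against 1431 CPM in replicate 1 and 1331 CPM in replicate 2 at E13.5, so it was higher in replicate 1 at E13.5 and lower there at E16.5. Whether the libraries held different shares of dorsal and ventral tissue was not tested. In the authors' deposited table of fold changes, Neurog1 stood at a log2 change of -3.55 (adjusted p = 8.92e-21), Bhlhe22 at 0.62 (adjusted p = 0.0157) and Neurod2 at -0.10 (adjusted p = 0.22).

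For each member, the genes whose levels over the 4 libraries ran closest to it were found by the Euclidean distance of log2 levels centred on each gene's mean, among genes of at least 10 CPM. Neurog1 lay nearest to Nhlh1, at a distance of 0.488, and then to Tuba1c at 0.810, so that few genes shared so steep a decrease. Nhlh1 lay nearest to Tuba1c at 0.446 and Tcf7l1 at 0.446. Neurog2 lay close to Tk1 at 0.0737 and Spdl1 at 0.0763, and Nhlh2 to Gmnn at 0.103 and Nr2e1 at 0.143. Neurod4 lay close to Nsmce4a at 0.0558 and to Eomes, a factor of intermediate progenitors, at 0.0592. Neurod1 lay close to Rmi1 at 0.0319 and Ntmt1 at 0.0348, Neurod6 to Ints12 at 0.0165 and Ikzf5 at 0.022, Neurod2 to Dyrk2 at 0.0165 and Alg12 at 0.0206, and Bhlhe22 to Fam171a2 at 0.0457 and Lrp11 at 0.0558. With 4 libraries these distances describe little more than the change between the stages.

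Most genes listed as known to act downstream of Neurog2 and the Neurod factors were also lower at E16.5. Of 15 such genes, 14 were called lower and none higher, against 29.2% and 28.4% of all tested genes. Their median log2 change was -0.83, against 0.01 over all tested genes. The list was chosen with earlier results of these data known, so these counts are a description. Gadd45g, a growth arrest gene of cells entering differentiation, had 24.0 and 24.3 CPM at E16.5, against 81.1 and 81.6 CPM at E13.5, the lowest log2 change of the list at -1.75 ± 0.06 (adjusted p = 6.67e-07). Dll1, the Notch ligand that Neurog2 switches on, had 51.1 and 52.8 CPM at E16.5, against 128 and 133 CPM at E13.5 (log2 change -1.33, adjusted p = 1.07e-06). The stages lay apart in both genes, with little spread within a stage. Rnd2, a small GTPase of migrating neurons, fell by 1.41 on the log2 scale, Btg2, an antiproliferative gene of neurogenic progenitors, by 1.49, Mfng, a modifier of Notch, by 1.3, and Dll3, a further Notch ligand, by 1.14. Smaller decreases were called for Eomes (log2 change -0.93), the deep-layer factor Tbr1 (-0.83), Hes6 (-0.83), the RNA-binding protein gene Elavl4 (-0.71), the corepressors Cbfa2t3 (-0.60) and Cbfa2t2 (-0.44) and the zinc-finger factor Insm1 (-0.56). Dcx, a microtubule protein of migrating neurons, had a log2 change of -0.11 (adjusted p = 0.0183) and under upper-quartile scaling one of -0.01, which did not pass the test (adjusted p = 0.721), nor did it without E13.5 replicate 1 (adjusted p = 0.0634). Sstr2, a somatostatin receptor, had -0.16 and was not called (adjusted p = 0.108), but passed without E13.5 replicate 2 (adjusted p = 0.0135) and with no filter on low counts (0.0459).

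The partners and opponents of the 9 factors did not move as one. Of the E proteins, with which these factors form dimers, Tcf3 had 183 and 171 CPM at E16.5, against 341 and 345 CPM at E13.5, and fell by 0.95 on the log2 scale (adjusted p = 3.19e-06). Tcf12 fell by 0.84, while Tcf4 had 739 and 712 CPM at E16.5, against 775 and 690 CPM at E13.5, with overlapping stages and no call (adjusted p = 0.839). The median of these 3 genes was -0.84.

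Of 12 HES, HEY and ID repressors, 5 were lower and 5 higher at E16.5, with a median log2 change of 0.48. Of all tested genes 29.2% were called lower and 28.4% higher. The lower ones were the Notch effectors Hes5 (log2 change -1.46), Hey1 (-1.42) and Hes1 (-0.90), the HES antagonist Hes6 (-0.83), which also stands among the downstream genes, and Id4 (-0.87). Hes5 had 17.4 and 14.1 CPM at E16.5, against 44.4 and 42.5 CPM at E13.5 (adjusted p = 1.83e-05). The higher ones were Id1 (0.86), Id3 (0.77) and Id2 (0.54), which bind E proteins and keep them from DNA, and the repressors Bhlhe40 (0.67) and Bhlhe41 (1.33). Id2 had 112 CPM in each E16.5 library, against 78.6 and 75.5 CPM at E13.5 (adjusted p = 5.31e-05). Hey2 (0.58, adjusted p = 0.0932) and Heyl (0.42, adjusted p = 0.084) did not pass the test. The call of Bhlhe41 was lost with DESeq2 (adjusted p = 0.125) and without E13.5 replicate 2 (adjusted p = 0.147), E16.5 replicate 1 (0.0858) or E16.5 replicate 2 (0.102). Without E16.5 replicate 1, Id1 (adjusted p = 0.0783) and Bhlhe40 (0.0931) also lost their calls and Heyl gained one (0.0344), so that 3 of the list were called higher. Heyl also passed under upper-quartile scaling (adjusted p = 0.0453).

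Of 11 other neural bHLH genes 7 had enough reads to test, and 4 of these were lower and 2 higher, with a median log2 change of -0.54. The shares of all tested genes were 29.2% lower and 28.4% higher. Olig1, a factor of oligodendrocyte precursors, had 49.8 and 46.7 CPM at E16.5, against 7.69 and 7.22 CPM at E13.5 (log2 change 2.69, adjusted p = 8.28e-07). The stages of Olig1 lay far apart. Npas1, a factor of inhibitory neurons, was also higher (2.11), and Olig2 (-0.63), Npas3 (-0.41), Atoh8 (-1.17) and Olig3 (-2.39) were lower, the last with no more than 49 estimated reads in a library. The call of Atoh8 was lost with DESeq2 (adjusted p = 0.166) and without E13.5 replicate 1 (adjusted p = 0.163), E16.5 replicate 1 (0.0715) or E16.5 replicate 2 (0.15), and that of Olig3 without E13.5 replicate 2 (0.0516). Bhlhe23, the closest relative of Bhlhe22, had 0.894 and 0.545 CPM at E16.5, against 0.360 and 1.71 CPM at E13.5, and was not called (adjusted p = 0.527). Neurog3, Atoh1, Atoh7 and Ptf1a had too few reads to test.

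**Figure D3:**
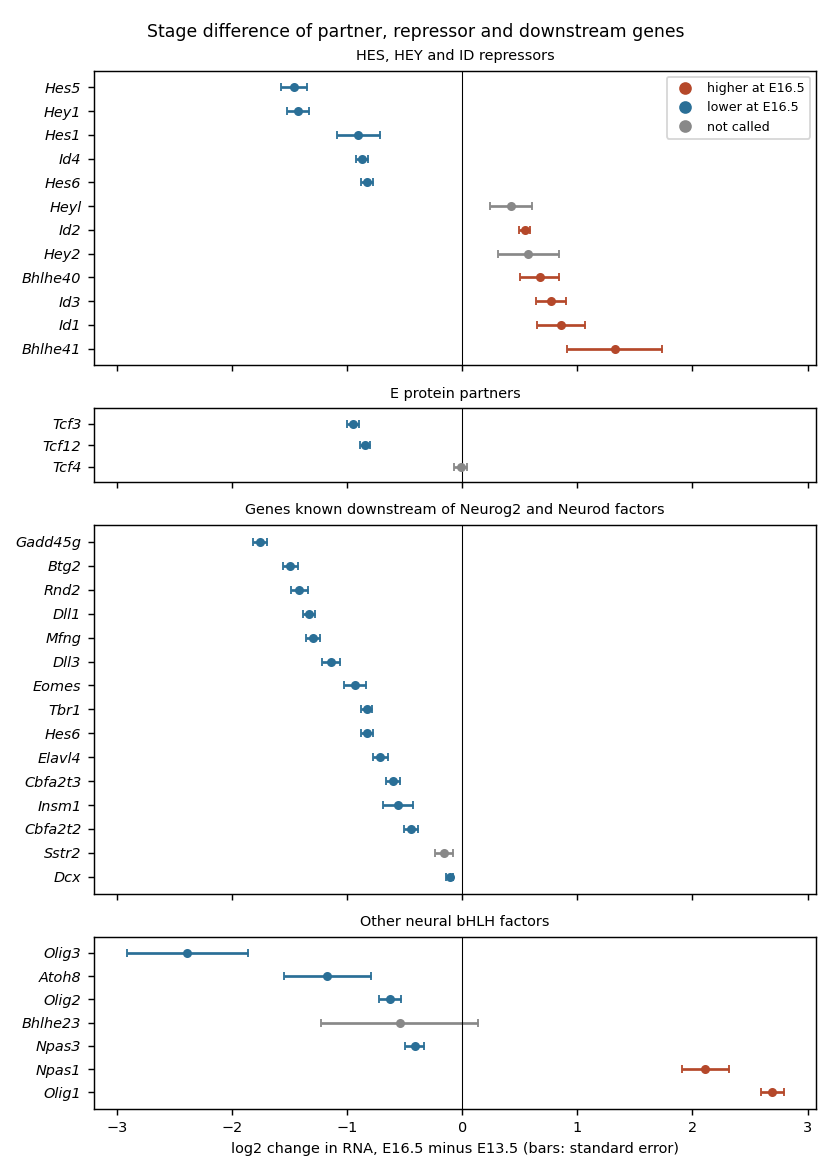
Log2 change in RNA between E16.5 and E13.5 (horizontal axis) with its standard error for the tested genes of the 4 lists of partners, repressors, downstream genes and other neural bHLH factors, in red where called higher, in blue where called lower and in grey where not called. The downstream genes lie between -1.75 (Gadd45g) and -0.11 (Dcx), all left of the zero line, while the repressors fall on both sides.

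Markers of cell types moved with the stages as well, beside 29.2% of all tested genes called lower and 28.4% called higher. All 6 markers of dividing cells were lower, with a summed level of 535 and 491 CPM at E16.5, against 1450 and 1453 CPM at E13.5. Of 8 radial glia markers 5 were lower and 2 higher (1300 and 1171 CPM at E16.5, against 1836 and 1920 CPM at E13.5), and of 8 Cajal-Retzius markers 6 were lower and 1 higher (226 and 260 CPM at E16.5, against 427 and 401 CPM at E13.5). Of 6 general neuron markers 4 were higher and none lower (3605 and 3639 CPM at E16.5, against 3048 and 3138 CPM at E13.5). The excitatory cortical markers, the cells of Neurod2 and Neurod6, were divided, with 4 of 7 lower and 2 higher, and of the 10 inhibitory and ventral markers 7 were lower and 3 higher. Of 5 erythroid markers 3 were higher and 1 lower, and of 4 tested markers of meninges and mesenchyme 1 was higher. Astrocyte, microglia and endothelial markers were higher in all 5 genes of each list, and oligodendrocyte markers in 4 of 5, with 1 lower. The summed endothelial level was 302 and 318 CPM at E16.5, against 85.4 and 95.9 CPM at E13.5. Of 6 genes of brain regions outside the telencephalon, Hoxb4 and Hoxa5 were at 0 in all 4 libraries and the summed level was at most 1.74 CPM. The part of these shifts in the changes of the 9 genes was not tested.

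Most of these genes carried the marks at both stages, and what differed at some of them was the length called. With peaks within 2000 bp counted, 8 of the 9 genes had H3K9ac and H3K9cr in all 4 libraries of the mark, and 7 had H3K18la. No gene gained or lost a mark outright, that is, with a peak in both libraries of one stage and in neither of the other. Among 21887 protein-coding genes, a peak in all 4 libraries was found near 65.4% for H3K9ac, 65.6% for H3K9cr and 56.4% for H3K18la. Among the 8961 of these no longer than Neurod4, the longest of the 9 genes, the shares were 45.6%, 45.8% and 36.5%. A gain was found near 1.77%, 1.25% and 0.694% of all genes and a loss near 0.119%, 0.0594% and 1.73%, in the same order of marks, so 0 of 9 is near the share of all genes. Leaving out E13.5 replicate 2 of H3K9ac, or E16.5 replicate 1 of H3K18la, turned 1 gene into a loss, under a rule that is then easier to meet. Neurod4, the longest gene, stood apart, with no H3K18la peak in any library and a single short peak in 1 of 4 H3K9ac libraries (404 bp, E13.5) and in 2 of 4 H3K9cr libraries (359 bp at E16.5 and 311 bp at E13.5).

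**Figure D4:**
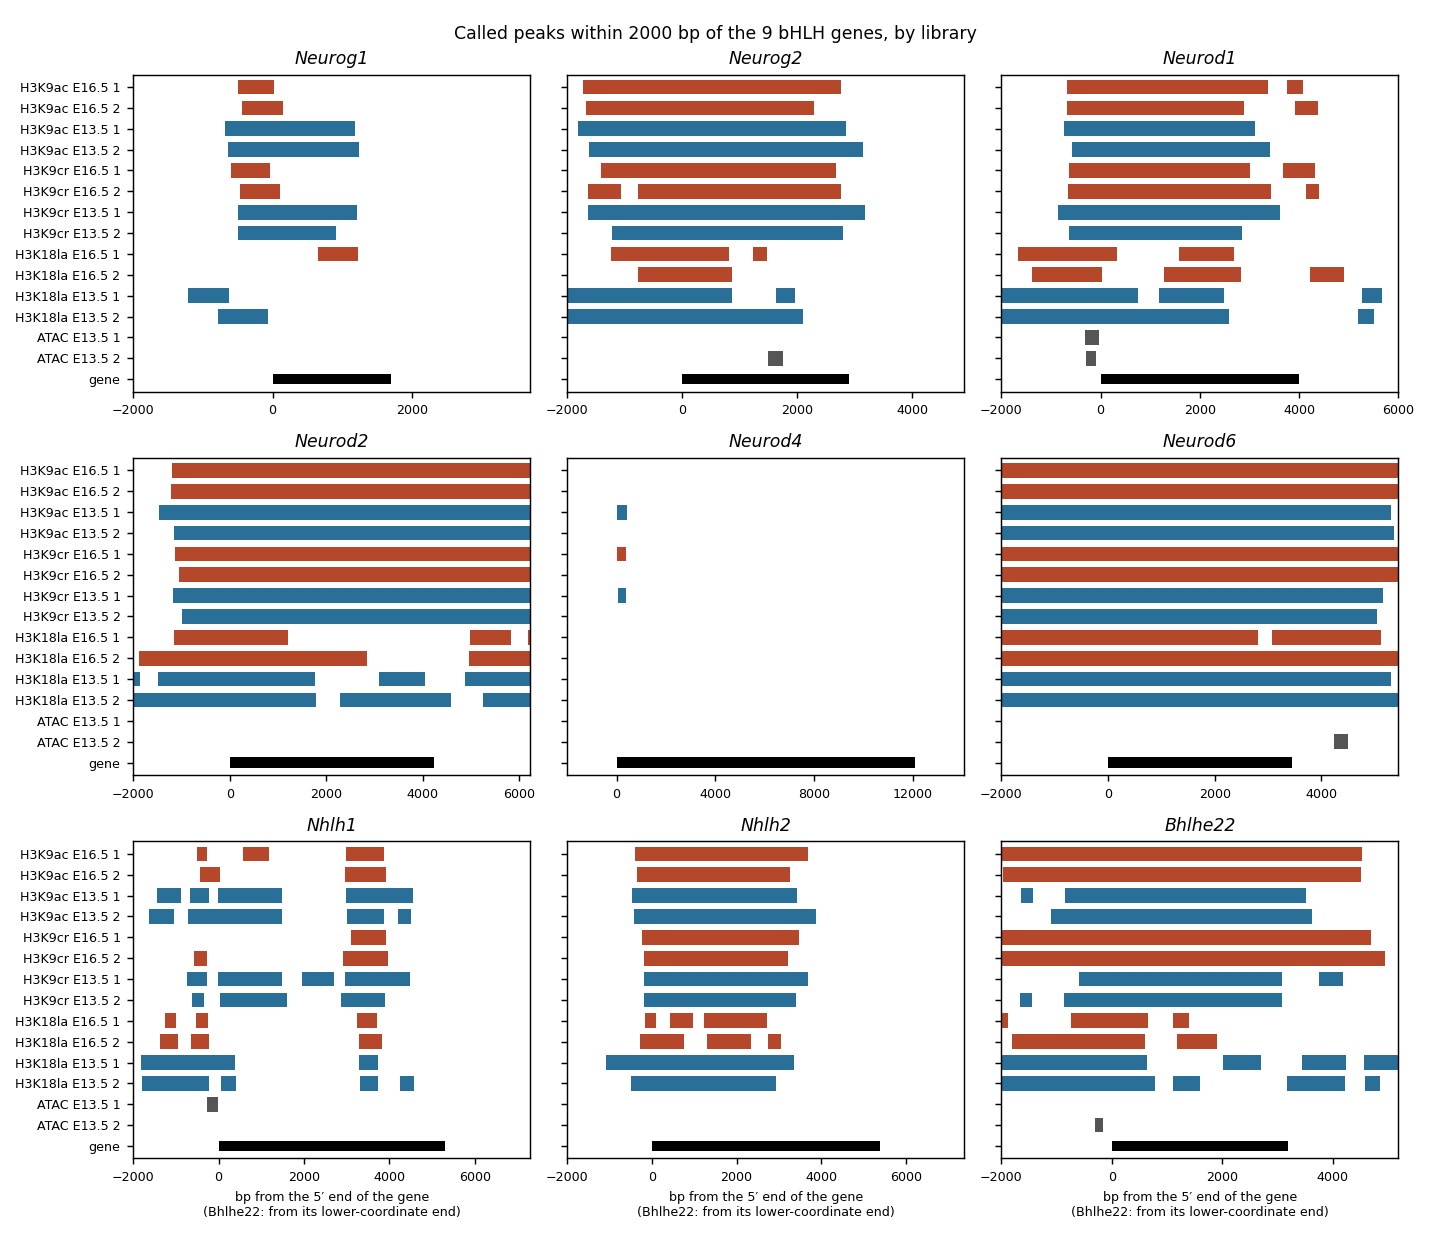
Peaks of each library (rows, E16.5 in red, E13.5 in blue, ATAC-seq in grey) within 2000 bp of the 9 genes, by distance in bp from the gene's 5′ end (horizontal axis, Bhlhe22 from its lower-coordinate end), with the gene span in black. Neurod6 and Neurod2 are covered nearly end to end by H3K9ac and H3K9cr, Neurog1 and Nhlh1 carry longer peaks at E13.5, and Bhlhe22 carries longer H3K9ac and H3K9cr peaks at E16.5.

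H3K9ac, a mark of active promoters, covered less of Neurog1, Neurog2 and Nhlh1 at E16.5 in both libraries, and more of Neurod1, Neurod6 and Bhlhe22. Shorter coverage of this kind was found for 17.7% of all protein-coding genes and 18.8% of those no longer than Neurod4, and longer coverage for 26.4% and 12.6%. Covered lengths were not tested, since an exact permutation test of 2 libraries against 2 cannot reach a threshold of 0.05, and these are descriptions. At Neurog1, H3K9ac peaks covered 520 and 582 bp at E16.5, against 1878 and 1882 bp at E13.5. What remained called in all 4 libraries at Neurog1 was a 462-bp stretch at the start of the gene, between -437 and 24 bp of its 5′ end, while 1046 bp of the gene body, between 145 and 1190 bp, was called at E13.5 only. At Nhlh1, peaks covered 1734 and 1435 bp at E16.5, against 4074 and 3963 bp at E13.5. The stretch at Nhlh1 called at E13.5 only included 551 bp just inside the start, between 30 and 580 bp, and an 854-bp stretch between 3013 and 3866 bp was called in all 4 libraries. Neurog2, whose RNA also fell steeply, differed far less, with 4487 and 3962 bp at E16.5, against 4666 and 4772 bp at E13.5, and 3917 bp called in all 4 libraries.

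At Bhlhe22, the gene that rose, H3K9ac peaks covered 6539 and 6478 bp at E16.5, against 4583 and 4737 bp at E13.5. The 1528 bp of Bhlhe22 called at E16.5 only lay on both flanks of a 4370-bp stretch called in all 4 libraries. The differences at Neurod1 and Neurod6 were small. Neurod1 had 4395 and 4034 bp at E16.5, against 3848 and 3991 bp at E13.5. Neurod6 had its whole window of 7446 bp covered in both E16.5 libraries, against 7315 and 7369 bp at E13.5, so its window could not show more. Neurod2 (7385 bp called in all 4 libraries) and Nhlh2 (3612 bp) had overlapping stages. Counting only the bases within the gene spans left 0 genes with longer H3K9ac coverage. The spans of Neurod6 and Bhlhe22 were covered whole in all 4 libraries, so they could not show more. Leaving out E13.5 replicate 2 gave 5 genes with shorter coverage, under a rule that is then easier to meet.

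H3K9cr, crotonylation of the same lysine, ran along H3K9ac. Of the bases called for H3K9cr in both libraries of a stage, between 90.1% and 100% were also called for H3K9ac in the 8 genes with such bases. H3K9cr coverage was shorter at E16.5 at Neurog1 and Nhlh1 (background 8.25% of all genes and 9.07% of those no longer than Neurod4) and longer at Neurod6 and Bhlhe22 (31.8% and 16.0%), so the 2 longer genes of 9 are near these shares. Neurog1 had 550 and 570 bp at E16.5, against 1708 and 1418 bp at E13.5. Nhlh1 had 808 and 1349 bp at E16.5, against 4243 and 2865 bp at E13.5, with 1450 bp between 38 and 1487 bp called at E13.5 only. Bhlhe22 had 6700 and 6940 bp at E16.5, against 4104 and 4175 bp at E13.5. The stages lay apart in these 3 genes for both H3K9 marks. The H3K9cr peaks of the E13.5 libraries covered 41.9 Mb in replicate 1 and 35.5 Mb in replicate 2 over the genome. Without replicate 1 of E13.5, 5 genes had longer H3K9cr coverage, and without replicate 2 of E13.5, 6 genes had shorter coverage. With a library left out the rule is easier to meet, so such counts can only stay or rise. The shares of all genes under that looser rule were not counted. Longer coverage was found for 1 gene within the gene spans and for 4 genes within 5000 bp.

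H3K18la, lactylation of another lysine, went one way. Its coverage was shorter at E16.5 at 6 of the 9 genes, Neurog1, Neurog2, Neurod1, Nhlh1, Nhlh2 and Bhlhe22, and longer at none, against 26.8% and 5.11% of all genes, and 19.1% and 3.23% of those no longer than Neurod4. Neurog2 had 2294 and 1638 bp at E16.5, against 3191 and 4093 bp at E13.5. Neurod1 had 3103 and 3623 bp at E16.5, against 4478 and 4904 bp at E13.5. The longer H3K9ac coverage of Neurod1 was a small difference. Its strongest H3K9ac peak overlapped in length between the stages, with 4053 and 3581 bp at E16.5, against 3848 and 3991 bp at E13.5. Nhlh1 had 1044 and 1349 bp at E16.5, against 2628 and 2680 bp at E13.5, and Nhlh2 had 2280 and 2386 bp at E16.5, against 4431 and 3424 bp at E13.5. The difference at Neurog1 was marginal, with 579 and 0 bp at E16.5, against 582 and 727 bp at E13.5, and the E16.5 peak of Neurog1 lay inside the gene whereas the E13.5 peaks lay before its start. Neurod2 (3277 and 5998 bp at E16.5, against 5697 and 7061 bp at E13.5) and Neurod6 (6865 and 7446 bp at E16.5, against 7298 and 7446 bp at E13.5) had overlapping stages. E16.5 replicate 1 of H3K18la stood apart over the whole genome, with 45.6 Mb covered by peaks against 68.8 to 73.6 Mb in the other libraries of the mark. Without it the count of genes with shorter H3K18la coverage was also 6. Leaving out a library can only keep or raise this count, so that cannot show whether the count rests on the library. With the same number of peaks taken from each library the count was 5.

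Bhlhe22 was the gene at which the called lengths of the marks parted most clearly. H3K18la covered 1814 and 3140 bp of its window at E16.5, against 4768 and 4589 bp at E13.5. The called length of both H3K9 marks was longer at E16.5, and the RNA level was higher. Over the genome, H3K9ac peaks covered 54.2 Mb in each E16.5 library, against 45.9 and 45.4 Mb at E13.5. H3K9cr peaks covered 49.8 and 51.1 Mb at E16.5, against 41.9 and 35.5 Mb at E13.5. The part of these totals in the differences at Bhlhe22 was not tested. One stretch of 773 bp, between 3441 and 4213 bp from the lower-coordinate end of Bhlhe22, was called for H3K18la at E13.5 only, and H3K9ac was called at E16.5 only between 3633 and 4504 bp. Of the Bhlhe22 bases called for H3K18la in both libraries, 100% were also called for H3K9ac at E16.5, against 42.8% at E13.5.

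**Figure D5:**
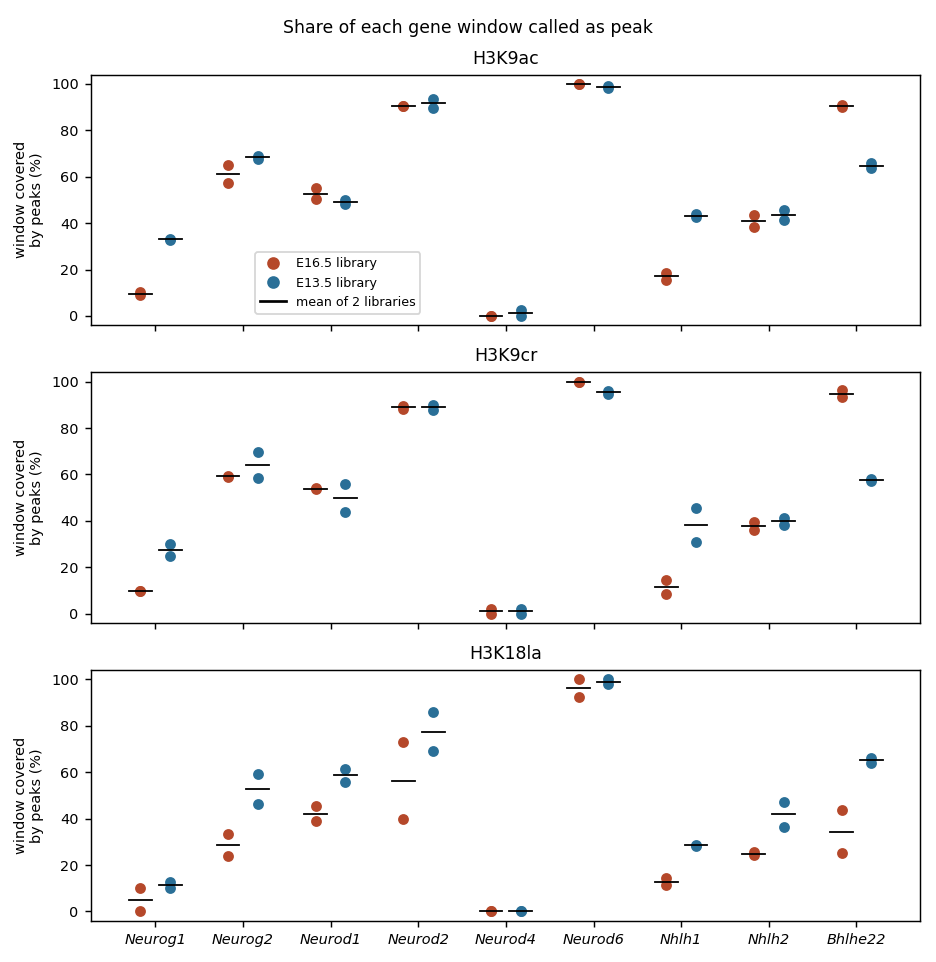
Share of each gene's window covered by peaks in percent (vertical axis) for H3K9ac, H3K9cr and H3K18la, one point per library, E16.5 in red and E13.5 in blue, with the mean of 2 libraries as a line. Neurod6 lies near 100% throughout, Neurog1 and Nhlh1 lie lower at E16.5 for the H3K9 marks, and Bhlhe22 lies higher at E16.5 for the H3K9 marks and lower for H3K18la.

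RNA and marks were then set side by side for the 7 genes whose RNA fell. H3K9ac coverage was shorter at 3 of them, longer at 2 and overlapping at 2, and H3K9cr coverage was shorter at 2, longer at 1 and overlapping at 4. H3K18la coverage was shorter at 5, longer at 0 and overlapping at 2, and it was also shorter at Bhlhe22, whose RNA rose. The shares of these calls among all genes with lower RNA were not counted. Neurog1 and Nhlh1, with the steepest RNA decreases, were the genes at which all 3 marks were shorter at E16.5. For H3K18la at Neurog1 this difference was marginal, with 579 and 0 bp at E16.5, against 582 and 727 bp at E13.5. The marks were mapped in separate libraries from the RNA, and a relation across the 9 genes was not tested.

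The share of the window that was marked, which the choice of the genes did not use, varied widely among them. H3K9ac covered at least 50% of the window in both libraries at 5 genes at E16.5 (Neurog2, Neurod1, Neurod2, Neurod6 and Bhlhe22) and at 4 genes at E13.5 (the same without Neurod1). Such wide coverage was found near 1.38% of all protein-coding genes at E16.5 and 1.52% at E13.5, and near 3.18% and 3.58% of those no longer than Neurod4. H3K9cr gave 5 genes at E16.5 and 4 at E13.5 as well, against 1.37% and 1.22% of all genes. Among genes no longer than Neurod4 the H3K9cr shares were 3.18% and 2.88%. H3K18la gave 1 gene, Neurod6, at E16.5 and 4 at E13.5, against 0.283% and 0.589% of all genes. Among genes no longer than Neurod4 the H3K18la shares were 0.692% and 1.36%. The share depends on the window. Within 5000 bp of the genes H3K9ac gave 3 at either stage, and within the spans alone it gave 6 at E16.5 and 7 at E13.5. Within 5000 bp H3K9cr gave 3 genes at E16.5 and 2 at E13.5, and H3K18la gave 2 at E16.5. The shares of all genes were not counted for these other windows.

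The fold enrichment of a peak, the authors' value from their peak caller, is described within a library only. In the E16.5 libraries of H3K9cr, Neurod6 had the highest value of the 9 genes, with a fold enrichment of 107 and 113, which 2.71% and 1.73% of the peaks of those lists exceeded. In the E13.5 libraries of H3K9cr the highest value was that of Neurod2, with 76.0 and 63.2, exceeded by 11.8% and 15.1% of the lists, and Neurod6 followed with 64.1 and 62.2. The H3K9ac peaks of Neurog1 reached 6.17 and 4.35 at E16.5, exceeded by 59.4% and 78.6% of the lists, and 7.64 and 8.02 at E13.5, exceeded by 53.2% and 51.8%. Neurog1 thus ranked in the lower part of each of these H3K9ac lists.

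Open chromatin at E13.5 was called in both libraries near 1 of the 9 genes. Neurod1 alone had an ATAC peak in both libraries, of 283 and 210 bp, placed just before the start. Of the Neurod1 upstream sequence printed above, these peaks covered 91.6% in replicate 1 and 65.2% in replicate 2, and all 12 histone mark libraries covered it whole. An ATAC peak in both libraries was found near 52.1% of all protein-coding genes and 31.2% of those no longer than Neurod4. Among genes with H3K9ac in both E13.5 libraries the shares were 77.4% and 66.7%, while 8 of the 9 genes carried that H3K9ac. A peak in 1 library only was called at Nhlh1 (251 bp, replicate 1), Neurog2 (254 bp, replicate 2), Neurod6 (265 bp, replicate 2) and Bhlhe22 (155 bp, replicate 2). None was called at Neurog1, Neurod2, Neurod4 or Nhlh2. A peak in at least 1 library was found near 61.6% of all protein-coding genes and 39.6% of those no longer than Neurod4. By that count the 9 genes were not low against genes of such length. The count of genes with a peak in every library kept moved with the libraries, to 4 in replicate 2 alone and 2 in replicate 1 alone. The shares of all genes there were 57.2% and 56.5%. No gene had an ATAC peak over its own span in both libraries. The ATAC lists held 26446 and 28232 peaks, and the reads behind them are not known here, so an uncalled gene is not shown to be closed.

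At the sequences printed above, the marks differed between the genes. H3K9ac covered the whole upstream window of Neurog1 in all 4 libraries, and H3K9cr in 3 of 4, with 83.2% in E16.5 replicate 1. H3K18la reached that window of Neurog1 in E13.5 replicate 2 alone, over 77.2% of it. The upstream window of Nhlh1 was covered by H3K9ac over 0% and 100% in the E16.5 libraries, against 13.2% and 100% at E13.5, and by H3K9cr over at most 4.0% in any library. Neurod2 had its upstream window covered whole by each of the 3 marks at both stages and by no ATAC peak. Over all promoter entries, some H3K9ac in both libraries was found at 43.8% at E16.5 and 41.9% at E13.5, and an ATAC peak at 26.0%.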

How the data were processed

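The authors' RNA table held expected counts, estimated reads per gene from Salmon 1.1.0 per the submitters' processing notes, and was rounded before testing. A second table deposited by the authors gave log2 fold changes and p-values from DESeq2 1.26.0, per the same notes. Peaks were called per library on GRCm38 with Bowtie2 2.4.1 and MACS2 2.2.7.1, again per those notes. The peak lists deposited by the authors give a signal (pileup at the summit), a -log10 p-value, a -log10 q-value and a fold enrichment, which is a ratio, per the file headers. All lists ended at a q-value of 0.01. Caller settings, its control and any removal of duplicates are not stated, and the 4 input libraries were not analysed here.

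RNA was tested with edgeR 4.0.16 (TMM, filterByExpr, quasi-likelihood test, Benjamini-Hochberg adjustment over all 16237 tested genes) under R 4.3.3, with 2 residual degrees of freedom. RNA libraries held 17533164 and 18024657 counts at E16.5, against 17059544 and 18485855 at E13.5. Peak coverage (bp called within 2000 bp of the gene span) was called longer or shorter when both E16.5 libraries lay above or below both E13.5 libraries, with no test. Genes longer than Neurod4 cannot match the members' windows, so a background of shorter genes was added after the data were seen, as was the count of genes covered over at least 50%. Gene positions and promoters came from NCBI RefSeq tables of GRCm38. Code was tested on simulated data over several random seeds. There the RNA test recovered most changed genes, but where genes kept their own estimated dispersions its share of false calls exceeded the threshold, mostly among the genes with the highest dispersion. Such calls are therefore less certain with 2 libraries per stage. The dispersions of the 9 genes lay between the 24.7 and 72.1 percentiles of all tested genes.

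The members and gene lists were chosen with earlier results of these data known. Named genes were all members, the genes of the 4 pathway lists, and the nearest genes to each member. One gene first placed on a pathway list was taken off it and is not reported here. The RNA p-values set the difference between the stages against the spread between libraries. With 2 libraries per stage, that spread was estimated partly from all tested genes. RNA libraries of a stage differed by more than counting noise (chi-square per degree of freedom 7.88 at E16.5 and 6.00 at E13.5). Same-numbered RNA libraries of the stages shared deviations with a correlation of 0.215 across genes, but the labels name no pairing, so no block was used. Alternatives were DESeq2 1.42.0, RLE and upper-quartile scaling, no filter, a replicate block, leaving out each library, and other distances, q-values, peak numbers and overlaps.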

Additional observations from a re-analysis of the deposited data

How the results depend on the processing

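In RNA, 7 members were lower and 1 higher with DESeq2, the other scalings, no filter and the replicate block, and leaving out each library gave 7 to 8 lower and 1 to 1 higher. The log2 change of Neurod2 was 0.0017 with upper-quartile scaling, which moved the median of all tested genes to 0.10. It was -0.18 and called without E13.5 replicate 2. The other 8 members kept their sign and call in every alternative. Members with longer H3K9ac coverage numbered 0 within the gene spans, where Neurod6 and Bhlhe22 were covered whole in every library and could not show more. Those with longer H3K9cr coverage numbered 1 within the spans and 4 within 5000 bp, and 1 member had longer H3K18la coverage within 5000 bp. Members with an ATAC peak in both libraries numbered 0 within the spans. Leaving out single libraries gave for H3K9ac 0 to 1 lost, 3 to 4 longer and 3 to 5 shorter, for H3K9cr 2 to 5 longer and 2 to 6 shorter, for H3K18la 0 to 1 lost and 6 to 8 shorter, and for ATAC 2 to 4. With a library left out these peak rules are easier to meet, so such counts can only stay or rise. The shares of all genes under the looser rules for the histone marks were not counted. No member gained a peak under any alternative. Of 189 counts of members from the histone mark peaks under the alternatives, 173 equalled the reported count or were within 1.5 times it. Covered length moves with how much was called in a library, the depth of the ChIP-seq and ATAC-seq libraries is unknown, and 2 libraries per group limit every statement. The causes of these moves were not tested.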
